A study of Mus musculus with 8 samples.

Results

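The proteasome subunit genes of the mouse were followed in N2a cells, a neuroblastoma line, in which Emg1 was knocked down; its product methylates 18S ribosomal RNA. Members were the genes whose symbol is Psm, a letter from a to g and a number, without the immunoproteasome genes Psmb8, Psmb9 and Psmb10. This gave 44 of the 16279 genes in the authors' deposited table of input RNA. All groups were N2a cells transfected with small interfering RNA, either one targeting Emg1 or a control (siControl), and collected 48 h later. The 8 libraries fell into 4 groups of 2, namely input RNA and RNA precipitated with an antibody against N6-methyladenosine (m6A), each for knockdown and for control. The labels do not say whether the 2 libraries of a group are separate cultures, and the p-values therefore measure a spread that may be technical. No values per library were available, so each gene is described by the authors' mean over libraries, fold change and standard error (SE).

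The proteasome degrades proteins that carry ubiquitin chains. Its 20S core is a barrel of alpha and beta rings with the proteolytic sites inside, and its 19S regulatory particle caps the barrel. The base of the 19S holds a ring of ATPases that unfold the substrate and thread it into the core, and the lid removes the ubiquitin. Dedicated chaperones build the rings, and other activators can take the place of the 19S at the end of the core. The subunits work in fixed proportions, and the transcription factor Nfe2l1 is known to raise their genes together when the proteasome is impaired.

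Emg1 itself was at 30.2% of control, with a log2 fold change of -1.73 ± 0.11 (SE) in the authors' deposited table. The file names no direction, and the negative value of Emg1 set the reading of all fold changes as knockdown relative to control. Of 10 sympathoadrenal markers 9 were measured, with mean normalized counts from 42.6 (Dbh) and 107.3 (Th) to 10441 (Hand2) and 13352 (Stmn2). By the authors' adjusted p, 5 of them rose and 2 fell, with log2 fold changes from -1.06 (Th) to 1.18 (Insm1) in the authors' deposited table, a wider range than that of the proteasome genes. The part of this in the changes below was not tested. Of 6 leukocyte markers only Cd68 (15.4) and Csf1r (3.96) were in the table. Of 6 fibroblast markers 3 were, Col1a1 at 33.7, Dcn at 99.1 and Pdgfra at 1357, and of 6 endothelial and epithelial ones 3 were, from 8.96 (Cdh5) to 406.6 (Pecam1). Of these, 5 had an adjusted p and 0 were called by DESeq2, with 1 (Dcn) at an unadjusted p under 0.05. In RNA of a whole culture, fewer cells that express a gene and less of its RNA per cell cannot be told apart.

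In input RNA the parts of the proteasome moved in different directions. In the 20S core 8 of 14 genes fell and in the 19S lid 4 of 8, while 4 of 6 genes of the 19S ATPase ring rose. The largest change was a fall of the assembly factor gene Psmd5. Of 43 members with an adjusted p, 5 rose and 16 fell by the authors' adjusted p under 0.05. The background was 17.1% rising and 15.5% falling among all 12807 genes that had an adjusted p. Of the 7944 genes with a mean at least as high as the lowest of these members, 24.1% rose and 18.7% fell. Changes were small, with a median absolute log2 fold change of 0.25 for the called members, against 0.38 for all called genes, and 0 of them changed at least 2-fold. The median over the 43 members was -0.10, and over all tested genes -0.0023.

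The remaining member, Psmb11, encodes the beta subunit of the thymus proteasome. It had a mean of 2.65 and no adjusted p in the authors' deposited table. Psma8, the testis alpha subunit, was not among the genes of the authors' deposited table. Means of the other members lay between 643.3 (Psmg4) and 15588 (Psmd2), and their SEs between 0.05 and 0.13 on the log2 scale. Members are not replicates of each other, so their classes are compared by counts, ranges and medians and without a test.

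**Figure D1:**
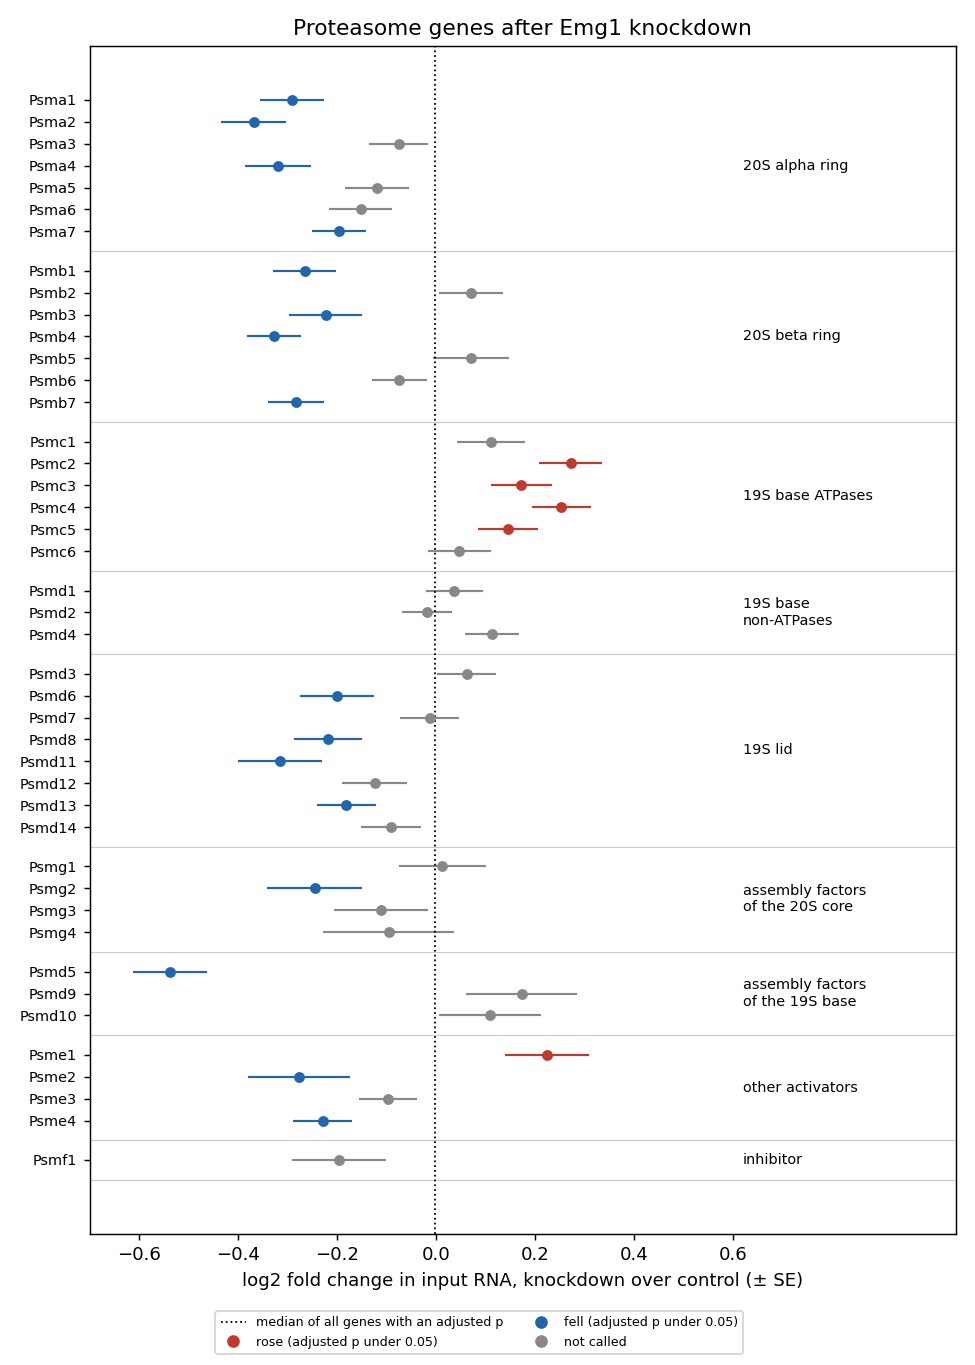
Log2 fold change in input RNA (horizontal axis, knockdown over control) of the 43 proteasome genes with an adjusted p, in rows grouped by part of the particle, with bars of 1 SE and colours for genes that rose, fell or were not called. The 6 ATPase genes lie to the right of the dotted median of all tested genes, all 7 alpha genes lie to the left of it, and Psmd5 is the lowest at -0.54.

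The 20S core had 14 members with an adjusted p, of which 8 fell and 0 rose; at an unadjusted p under 0.05 the count that rose by DESeq2 was also 0. Their median log2 fold change was -0.21. In the alpha ring, which gates the entry of substrates, all 7 values were negative and 4 genes fell. Psma2 had the lowest in the authors' deposited table, at -0.37 ± 0.07 with an adjusted p of 3.44e-07, which is 77.5% of control (95% interval from the SE, 70.9 to 84.7). Psma4 fell by 0.32 ± 0.07, Psma1 by 0.29 ± 0.07 and Psma7 by 0.20 ± 0.05 in the authors' deposited table. For these genes the adjusted p was 1.62e-05, 8.21e-05 and 0.00178. Psma6 at -0.15 ± 0.06 just missed the threshold (adjusted p = 0.0518) in the authors' deposited table. It passed when the fold changes were centred on the median over genes whose mean was 100 or more (0.0396) and when genes with a mean under 100 were left out (0.0463). Psma5 at -0.12 ± 0.07 and Psma3 at -0.08 ± 0.06 were not called in the authors' deposited table.

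The beta ring, which holds the proteolytic sites, was less even. Psmb4 fell by 0.33 ± 0.05 (adjusted p = 3.34e-08) and Psmb7 by 0.28 ± 0.06 (adjusted p = 9.24e-06) in the authors' deposited table. The same table, deposited by the authors, gave Psmb1 at -0.27 ± 0.06 and Psmb3 at -0.22 ± 0.07, with adjusted p of 0.0002 and 0.0111. The other 3 genes were not called, and 2 of them had positive values. These were Psmb2 at 0.07 ± 0.06 and Psmb5 at 0.07 ± 0.08, with Psmb6 at -0.07 ± 0.06 in the authors' deposited table. Of the catalytic subunits, Psmb7 carries the trypsin-like, Psmb5 the chymotrypsin-like and Psmb6 the caspase-like activity, so 1 of 3 fell. Among the beta subunits without activity, Psmb1 to Psmb4, 3 of 4 fell. The 95% interval of Psmb5, 94.6% to 117% of control, and that of Psmb7, 76.1% to 88.9%, did not overlap, and their difference was not tested.

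The ATPase ring of the 19S base held 4 of the 5 rising members. All 6 values were positive, 4 genes rose and 0 fell (0 also at an unadjusted p under 0.05 by DESeq2), and the median was 0.16. Psmc2 rose by 0.27 ± 0.06 (adjusted p = 0.000168) and Psmc4 by 0.25 ± 0.06 (adjusted p = 0.000172) in the authors' deposited table. These 2 transcripts stood at 121% (111 to 132) and 119% (110 to 129) of control. Psmc3 rose by 0.17 ± 0.06 (adjusted p = 0.0197) and Psmc5 by 0.15 ± 0.06 (adjusted p = 0.048) in the authors' deposited table. The call of Psmc5 was lost with adjustment over all genes (0.0606) and with that same centring (0.0634). Psmc1 at 0.11 ± 0.07 and Psmc6 at 0.05 ± 0.06 did not pass in the authors' deposited table. The range of the ATPase fold changes, 0.05 to 0.27, lay above that of the alpha ring, -0.37 to -0.08. These ranges leave out the SEs, and the 95% intervals of the nearest genes, Psmc6 and Psma3, overlapped. The beta ring was not separate from the ATPases. Its range was -0.33 to 0.07, and Psmb2 and Psmb5 were higher than Psmc6.

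The other subunits of the base are large scaffolds and ubiquitin receptors. None of the 3 was called by DESeq2, and 1 of them had an unadjusted p under 0.05. In the authors' deposited table, Psmd4, a ubiquitin receptor, was at 0.11 ± 0.05 (adjusted p = 0.0952). The scaffold genes Psmd1 and Psmd2 stood at 0.04 ± 0.06 and -0.02 ± 0.05 in the authors' deposited table. Adrm1, the remaining ubiquitin receptor of the base, has no Psm number and was therefore no member. It rose by 0.56 ± 0.07 (adjusted p = 6.04e-13) in the authors' deposited table, against 0.27 for the member with the largest rise.

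The lid fell in part. Of its 8 members 4 fell and 0 rose (0 also at an unadjusted p under 0.05 by DESeq2), with a median of -0.15. Psmd11, a scaffold subunit that touches the core, fell by 0.31 ± 0.08 (adjusted p = 0.00128) and Psmd8 by 0.22 ± 0.07 (adjusted p = 0.0067) in the authors' deposited table. Psmd6 fell by 0.20 ± 0.07 and Psmd13 by 0.18 ± 0.06, in the authors' deposited table, where the adjusted p was 0.0273 and 0.00943. All these encode subunits with a PCI fold, of which 4 of 6 fell. The PCI genes Psmd12 and Psmd3 were at -0.12 ± 0.07 and 0.06 ± 0.06 in the authors' deposited table. Neither of the 2 MPN subunits was called: the deubiquitinase gene Psmd14 was at -0.09 ± 0.06 and its partner gene Psmd7 at -0.01 ± 0.06 in the authors' deposited table. Over the whole 19S, 4 of 17 genes rose and 4 fell, and the median of 0.04 therefore describes neither the base nor the lid.

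The 7 assembly factors are not part of the finished particle, and 2 of them fell. Psmd5, a chaperone that holds ATPases of the base during assembly, fell in the authors' deposited table by 0.54 ± 0.07 (adjusted p = 2.13e-11), which is 68.9% of control (62.3 to 76.3). Of all genes with an adjusted p, 7.83% had a lower fold change. The ATPase held by this chaperone, Psmc2, had the largest rise among the members, 0.27 ± 0.06, with Psmc4 close to it at 0.25 ± 0.06. A link between the changes of Psmd5 and Psmc2 was not tested. The other base chaperones Psmd9, which binds Psmc3, and Psmd10, which binds Psmc4, were at 0.17 ± 0.11 and 0.11 ± 0.10 in the authors' deposited table and were not called. Psmg2, a chaperone of the alpha ring, fell by 0.25 ± 0.10 (adjusted p = 0.0354) in the authors' deposited table. Its partner gene Psmg1 was at 0.01 ± 0.09 and the pair Psmg3 and Psmg4 at -0.11 ± 0.09 and -0.10 ± 0.13 in the authors' deposited table. No assembly factor rose, and the count at an unadjusted p under 0.05 by DESeq2 was also 0. The median over the 7 was -0.10.

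Activators other than the 19S went both ways. Psme1 and Psme2 encode the alpha and beta subunits of 1 ring, PA28, and lie close together on chromosome 14. Psme1 (mm10 chromosome 14, 55578494 to 55581527) rose by 0.22 ± 0.09 and Psme2 (55587440 to 55591101) fell by 0.28 ± 0.10, in the authors' deposited table, where the adjusted p was 0.0288 and 0.0259. Psme2 has a near-identical copy, Psme2b, on chromosome 11, which fell by 0.40 ± 0.10 (adjusted p = 0.00082) in the authors' deposited table. Reads of the pair may have been split between them, so both values are uncertain. Psme4, the large nuclear activator PA200, fell by 0.23 ± 0.06 (adjusted p = 0.000776), and the nuclear PA28 gamma gene Psme3 was at -0.10 ± 0.06 in the authors' deposited table. Psmf1, which encodes the inhibitor PI31, was at -0.20 ± 0.10 with an adjusted p of 0.1 in the authors' deposited table.

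RefSeq lists pseudogenes of Psma5, Psmb5, Psmb6 and Psmb7, none of them a row of the table, and the treatment of reads shared with them is not known here. The spans of 12 members overlap another RefSeq gene. The libraries were made with a stranded kit, but it is not known here whether counting used the strand. For called members, the overlapping genes in the table had means of 15.2 (AY074887, on Psma4), 164.1 (Emc9, on Psme1) and 2199 (Erlec1, on Psme4). Erlec1 was at -0.18 ± 0.08 in the authors' deposited table, adjusted p = 0.0722.

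Promoters were compared because the called genes of the core, the lid and the ATPase ring each moved in 1 direction. RefSeq windows on GRCm38.p6, from 250 bases before to 50 after an annotated start, matched 36 of the 43 members. Both strands were searched for 3 motifs: the antioxidant response element TGACNNNGC bound by Nfe2l1 and Nfe2l2, the box CCAAT bound by NF-Y, and ACTTCCG, a core bound by ETS factors. The antioxidant element was in 6 of 36 members (16.7%) and in 17.0% of the 9631 tested genes with a window. The box CCAAT was in 12 of 36 (33.3%), against 43.5%. The share differed by class, with 6 of 11 core genes, among them 5 of 7 alpha genes, and 4 of 14 genes of the 19S. By call, 1 of 4 members that rose, 4 of 13 that fell and 7 of 19 that were not called held CCAAT. The ETS core was in 14 of 36 (38.9%), against 15.0%, although members had fewer windows per gene (1.08) than all genes (1.28). It was in 5 of 6 lid genes and 3 of 5 ATPase genes, the classes with opposite changes in input, and in 3 of 11 core genes. Of the members with a window, 2 of 4 that rose, 6 of 13 that fell and 6 of 19 that were not called held it. The 9631 genes were not matched to the members in level of expression, and motif shares at the level of the members were not computed. A match is a description of letters and does not show binding.

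**Figure D2:**
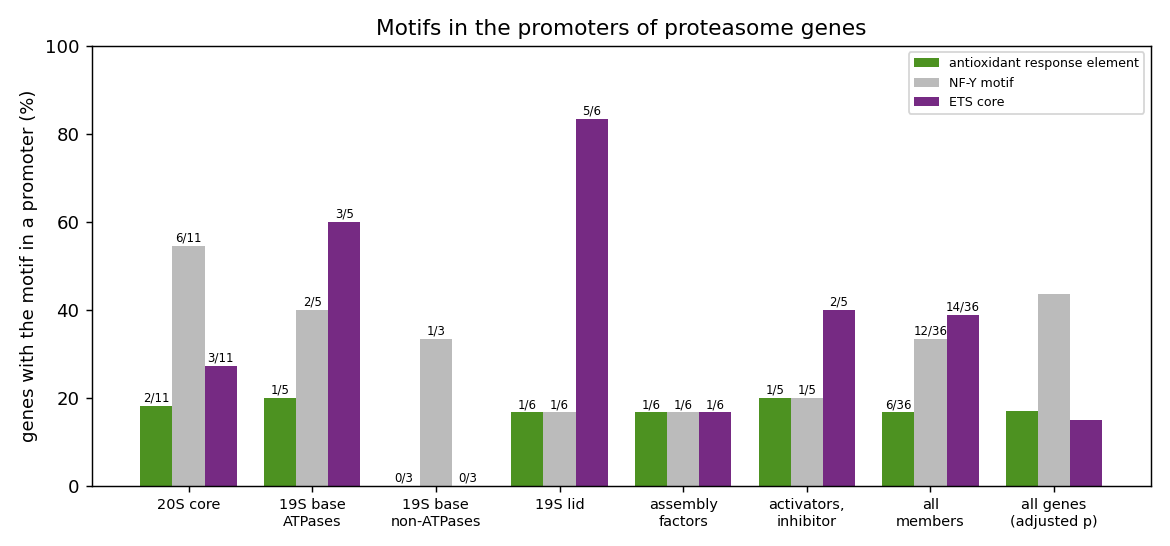
Percent of genes with a motif in a promoter window (vertical axis) by part of the proteasome (horizontal axis), with bars for the 3 motifs and counts over each bar; the last group is all tested genes with a window. The ETS core reaches 5 of 6 lid genes and 3 of 5 ATPase genes, against 15.0% of all genes.

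The promoters of ATPase genes that rose and lid genes that fell that held the core are shown, so that its place can be compared. They were chosen for having a match: Psmc5, which rose, and Psmd11, which fell, had a window without one, and Psmc3 had no window. Each runs 5′ to 3′ on the strand of the gene, from 150 bases before to 20 after the RefSeq start, with matches of ACTTCCG or its reverse complement in capitals. Psmc2 has 2 annotated starts, and both windows held the core.
Psmc2, first start (rose; chr5:21785125-21785294, + strand): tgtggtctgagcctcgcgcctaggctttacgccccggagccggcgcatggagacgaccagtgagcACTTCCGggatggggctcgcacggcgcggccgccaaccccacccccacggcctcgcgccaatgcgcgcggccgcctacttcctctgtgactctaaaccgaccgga
Psmc2, other start (chr5:21786597-21786766, + strand): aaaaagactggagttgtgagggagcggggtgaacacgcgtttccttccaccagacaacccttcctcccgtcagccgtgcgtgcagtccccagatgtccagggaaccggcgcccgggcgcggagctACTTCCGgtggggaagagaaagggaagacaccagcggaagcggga
Psmc4 (rose; chr7:28050073-28050242, - strand): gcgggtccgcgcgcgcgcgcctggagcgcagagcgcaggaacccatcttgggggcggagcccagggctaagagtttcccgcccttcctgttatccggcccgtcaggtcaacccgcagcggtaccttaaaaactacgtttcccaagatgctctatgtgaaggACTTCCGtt
Psmd6 (fell; chr14:14120926-14121095, - strand): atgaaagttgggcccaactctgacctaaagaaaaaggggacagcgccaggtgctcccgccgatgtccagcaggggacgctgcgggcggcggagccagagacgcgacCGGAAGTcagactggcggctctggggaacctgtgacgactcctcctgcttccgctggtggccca
Psmd8 (fell; chr7:29180654-29180823, - strand): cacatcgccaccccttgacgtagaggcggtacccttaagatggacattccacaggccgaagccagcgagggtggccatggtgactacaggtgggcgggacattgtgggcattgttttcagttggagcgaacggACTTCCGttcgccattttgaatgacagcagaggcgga
Psmd13 (fell; chr7:140882244-140882413, + strand): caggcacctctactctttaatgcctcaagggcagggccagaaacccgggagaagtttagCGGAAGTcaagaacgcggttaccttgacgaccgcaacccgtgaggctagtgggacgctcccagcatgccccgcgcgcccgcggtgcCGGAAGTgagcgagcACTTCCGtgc
Psmd13 held 3 matches in this stretch. The core began at position 12 after the start in Psmc4 and 17 bases before it in Psmd8.

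Differential m6A peaks, from the authors' list of 2114, lay on 11 of the 43 members with an adjusted p, or 25.6%. Over all genes with an adjusted p the share was 14.8%, and over the 7944 with a mean at least as high as the lowest member 21.4%. The members' share was not far from the latter. Those 7944 genes are not matched to the members in level, since the floor is the mean of Psmg4, 643.3. The lowest mean was 3336 in the core and 2329 in the 19S. Peaks with a negative change, as deposited, were on 10 of the 43 members. The share was 7.89% of all genes with an adjusted p and 11.5% of the 7944 genes. Peaks with a positive change were on 2 members, against 7.21% of all. Which condition is the numerator is not stated in the file, and a sign is therefore not read as gain or loss after knockdown.

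Most genes with a peak belonged to the 19S, and the split over classes was not tested. Of the 9 base genes 5 carried a peak, of the 8 lid genes 2, and of the 14 core genes 1. All 8 of these genes had a negative change. In the ATPase ring, the peak on Psmc1 changed by -0.85 (mm10 chromosome 12, 100112331 to 100115472) in the authors' deposited table. The peak on Psmc2 changed by -0.678 (chromosome 5, 21786712 to 21796566) and that on Psmc5 by -0.532 (chromosome 11, 106256185 to 106261250) in the authors' deposited table. Each was deposited as 4 separate blocks, and 2 of the 3 genes rose in input. In the rest of the base, Psmd2 had -1.07 (chromosome 16, 20651652 to 20652663) and Psmd4 -0.375 (chromosome 3, 95035844 to 95042614) in the authors' deposited table.

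In the lid, the peak on Psmd3 changed by -1.59 (chromosome 11, 98682554 to 98682912) in the authors' deposited table. In the authors' deposited table the peak on Psmd7 differed from the others, with 1067 bases in its blocks, a fold enrichment of IP over input of 9.89, the smallest change at -0.284 and an end at the annotated end of the gene (chromosome 8, 107580380 to 107584207). In the authors' deposited table the core gene with a peak was Psmb7, at -0.708 with an enrichment of 1.37 (chromosome 2, 38642259 to 38643906), and it also fell in input. Among assembly factors the authors' deposited table had a peak only on Psmd9, at -1.32 with an enrichment of 1.29 (chromosome 5, 123228428 to 123239571). Psmd5, the member with the largest input change, carried none in the list.

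Peaks with a positive change were on the inhibitor and on 1 activator. Psmf1 had 2, at 0.992 with an enrichment of 3.85 (chromosome 2, 151717228 to 151717557) and at 0.541 with an enrichment of 15.3 (151717677 to 151718364), in the authors' deposited table. Both lay near the annotated end of the gene, 1166 and 1615 bases before it. Their false discovery rates, 0.00589 and 0.00759, were the weakest of the 13 peaks. Psme3 carried both signs: -1.94 near the start (chromosome 11, 101316370 to 101317181) and 0.524 towards the end (101321805 to 101321983), both with low enrichments of 1.35 and 1.33 in the authors' deposited table.

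**Figure D3:**
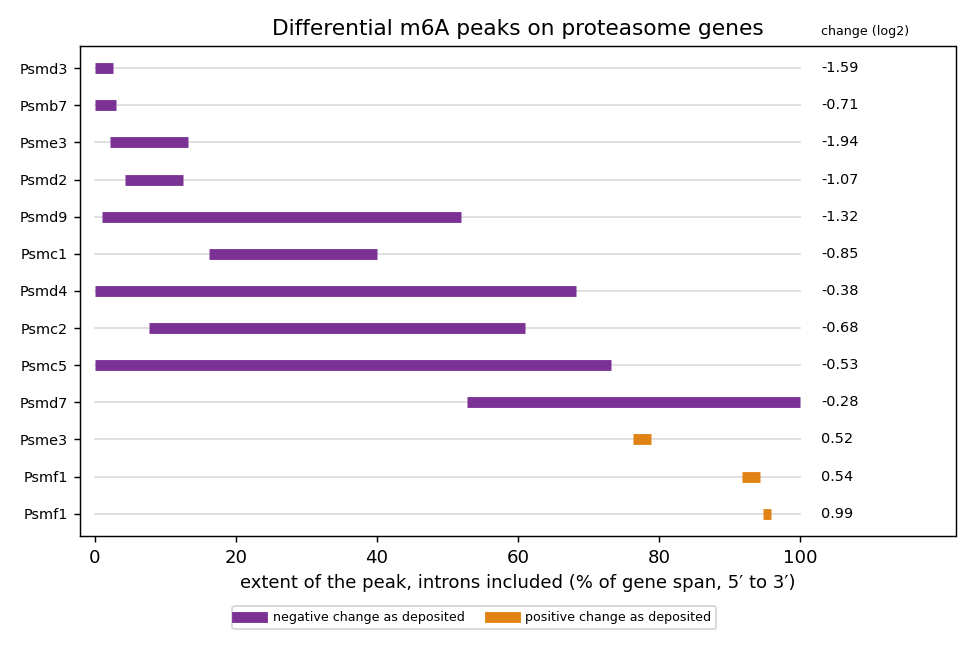
Extent of the 13 differential m6A peaks on proteasome genes along the gene span (horizontal axis, percent of the span from start to end, introns included), 1 row per peak, coloured by the sign of the change and with the log2 change at the right. The 3 positive-change peaks have midpoints at 77.6%, 93.0% and 95.3% of the span. Midpoints of the 10 negative-change peaks run from 1.33% (Psmd3) to 76.4% (Psmd7), and 6 of these peaks begin within 500 bases of the start.

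Most negative-change peaks on these genes began near the start of the gene. The 5′ edge lay within 500 bases of the annotated gene start in 6 of 10, against 35.8% of the 1075 negative-change peaks of the list that could be placed, and in 0 of 3 positive-change peaks, against 5.57% of 951. This distance was chosen after the values were seen. On Psmc5, Psmd3 and Psmd4 the peak began at the first annotated base. That on Psmd2 began 530 bases further on, exactly at another listed start. The peak on Psmc2 began 1437 bases after the gene start and 35 bases before its other start. Its 5′ edge thus lay inside the promoter window of that start printed above. Counting such starts, also a choice made after the values were seen, 8 of 10 peaks began within 500 bases of one, against 41.8% of the 1075. Of the 10 peaks 9 had more than 1 block, against 62.4% of all negative-change peaks. Whether the blocks are untranslated or coding was not analysed here.

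Enrichment was modest on most of these genes. The median fold enrichment of the 10 negative-change peaks was 2.715, against 4.11 for all negative-change peaks of the list, and 3 of the 10 (Psmb7, Psmd9 and Psme3) were below 2. With an enrichment of at least 2 required, 8 of the 11 members kept a peak. The change in input differed among the genes with negative-change peaks: 2 rose (Psmc2 and Psmc5), 1 fell (Psmb7) and 7 were not called. It is not known here if the input libraries enter the peak change, and the part of input abundance in the peak changes was not tested.

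**Figure D4:**
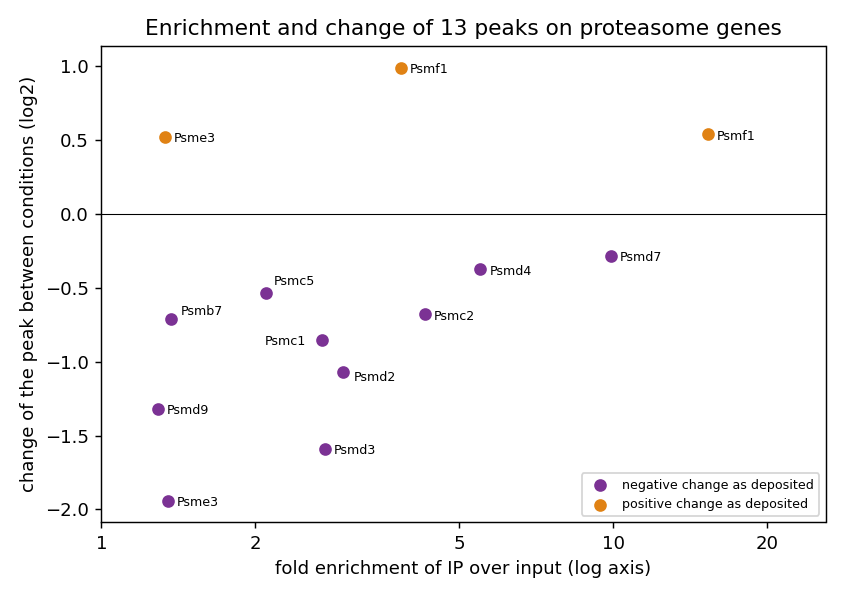
Change of each of the 13 peaks between conditions (vertical axis, log2, sign as deposited) against its fold enrichment of IP over input (horizontal log axis), 1 labelled point per peak. The largest negative change, on Psme3, has an enrichment of 1.35, and the strongest negative-change peak, on Psmd7 at 9.89, has the smallest change.

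Genes that work with the proteasome were taken from lists. The counts of each list stand beside 17.1% rising and 15.5% falling among all genes with an adjusted p. Among genes with a mean at least as high as the lowest member these shares were 24.1% and 18.7%. The list of partners of the particle had 13 measured genes outside the member rule. It includes Psme2b, the copy of Psme2 whose value is uncertain. Of these 13 genes, 3 rose and 3 fell. Beside Adrm1, AI314180 (now Ecpas), an adaptor of the whole particle, rose by 0.26 ± 0.08 and Ipo9, a nuclear importer of proteasomes, by 0.17 ± 0.06 in the authors' deposited table. Ube3c, a ubiquitin ligase bound to the particle, fell by 0.24 ± 0.06 and Txnl1, a bound thioredoxin, by 0.21 ± 0.06 in the authors' deposited table; Psme2b was the other gene that fell. The maturation factor gene Pomp, at -0.03 ± 0.07, and the deubiquitinase gene Usp14, at 0.02 ± 0.07, were not called in the authors' deposited table.

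Of the 3 immunoproteasome genes, whose products replace the catalytic beta subunits, 1 rose. Psmb10, the counterpart of Psmb7, rose by 0.28 ± 0.11 (adjusted p = 0.0314) in the authors' deposited table, while Psmb7 fell. Psmb8 and Psmb9, the counterparts of Psmb5 and Psmb6, were at -0.16 ± 0.08 and -0.60 ± 0.27 and were not called in the authors' deposited table. At an unadjusted p under 0.05 by DESeq2, 1 of the 3 rose and 2 fell.

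Among 14 genes linked to the transcription of proteasome genes, 3 rose and 0 fell, and at an unadjusted p under 0.05 the count that fell by DESeq2 was also 0. Foxm1, a transcription factor of the cell cycle, rose by 0.49 ± 0.07, Ddi2, the protease that activates Nfe2l1, by 0.33 ± 0.11 and Nfe2l2 by 0.23 ± 0.09 in the authors' deposited table. The authors' deposited table gave Nfe2l1 itself at -0.10 ± 0.05 (adjusted p = 0.15). It carried 2 negative-change peaks, at -0.428 and -0.229 with enrichments of 29.6 and 23.3, and it is named here after these values were seen.

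In the list of Vcp and shuttle factors, which bring substrates to the particle, 4 of 16 rose and 1 fell. Vcp, the ATPase that extracts ubiquitinated proteins, rose by 0.37 ± 0.06 (adjusted p = 1.44e-08) and its cofactor gene Nploc4 by 0.22 ± 0.06 in the authors' deposited table. The shuttle factor gene Ubqln4 rose by 0.20 ± 0.07 and the cofactor gene Ubxn4 fell by 0.19 ± 0.08 in the authors' deposited table; Ddi2 stands in this list too. Of 6 genes for ubiquitin and its activating enzymes, 1 rose and 2 fell. Uba1, the main activating enzyme, rose by 0.14 ± 0.05, and the ubiquitin genes Ubb and Rps27a fell by 0.17 ± 0.05 and 0.15 ± 0.06 in the authors' deposited table.

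**Figure D5:**
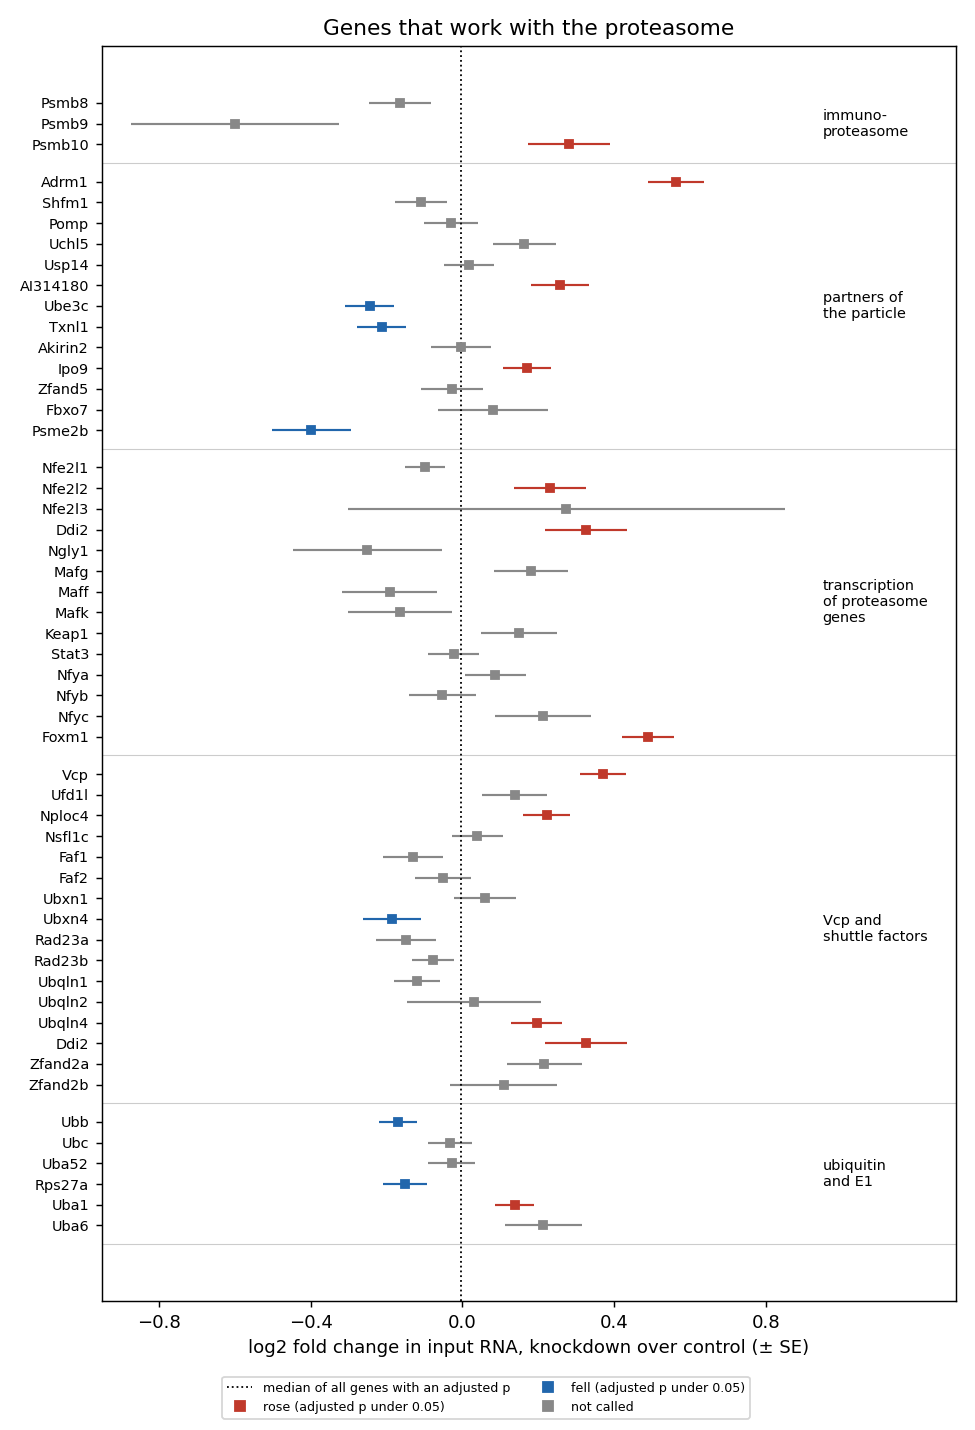
Log2 fold change in input RNA (horizontal axis, knockdown over control) of the genes that work with the proteasome, in rows grouped by list, with bars of 1 SE and colours for genes that rose, fell or were not called. Adrm1 at 0.56, Foxm1 at 0.49 and Vcp at 0.37 have the highest values among the called genes, and Psme2b at -0.40 the lowest.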

How the data were processed

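The libraries measured input RNA and m6A-precipitated RNA of N2a cells. HISAT2, Trimmomatic and DESeq2 with the mm10 build are named in the submitters' processing notes; for the read counter, peak caller and versions the sources used here give nothing. The mean expression is a signal, the mean of normalized counts, per the file headers. Fold changes and SEs were deposited as log2 values, and the Wald statistic was deposited as a score. The p-values, raw and adjusted, are those the authors deposited; 3472 genes, with means up to 22.7, had no adjusted p. In the peak list, the authors deposited the fold enrichment as a ratio, the change as a log2 value, and the log10 of its false discovery rate as a score. Peak starts were counted from 1.

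Neither file holds values per library, so depth is unknown and nothing was refitted: calls are the authors' adjusted p under 0.05. The members, classes and lists were chosen with earlier results of these data known. Named genes were Emg1, the members, and in each other list up to 6 called genes; the uncalled genes of those lists and the cell type markers were named after their values were seen. Intervals of 95% are 1.96 SE on the log2 scale. Gene spans, starts and promoters came from RefSeq (GRCm38.p6). The scripts (Python 3.11.15) were tested on simulated data and used scipy 1.17.1, pandas 2.3.3, matplotlib 3.10.9 and numpy 2.4.6.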

Additional observations from a re-analysis of the deposited data

How the results depend on the processing

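The falling and rising members kept their number within 1.5 times with an adjusted p under 0.1 (6 rose, 17 fell), adjustment over all genes (4 and 16), a mean of at least 100 (5 and 17) and centring by 0.0077 on the median of genes with such a mean (4 and 17). With an adjusted p under 0.01, 2 rose and 12 fell, and with an absolute log2 fold change of at least 0.3, 0 rose and 5 fell, since the changes were small. The medians of the core, the 19S and the assembly factors moved by less than the median SE of a single gene under each alternative run. That SE is not the uncertainty of a class median. One alternative was a mean weighted by the inverse of the squared SE in place of the median. It gave -0.19 for the core (median -0.21), 0.02 for the 19S (0.04) and -0.15 for the assembly factors (-0.10). All 11 members kept a peak at a false discovery rate under 0.01. No paired analysis was possible because the files hold no values per library, and for the same reason no library could be left out. The precision is that of the authors' SE, with 2 libraries per group.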
